A study of Rattus norvegicus with 18 samples.

Results

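The 9 genes followed here belong to the node of Ranvier and its flanking paranode, and were compared between 2 cell populations sorted from the brains of rat pups. They are Nfasc, Cntn1, Cntn2, Cntnap1, Nrcam, Hapln2, Ninj2, Ank3 and Epb41l3, listed by name as a group of adhesion, matrix and anchoring genes when earlier results of these arrays were already known. All 9 genes were present, through 20 of the 31256 probe sets on the arrays, each annotated to exactly 1 gene symbol. Whole brain dissociates of male pups at postnatal day 7 were sorted by flow cytometry into A2B5+ cells (5 replicates) and O4+ cells (4 replicates), with a litter of 10 pups behind each replicate. No allele, agent or treatment is named for any sample. A2B5 is an antibody to gangliosides of glial progenitors and of some neurons, and O4 binds sulfatide and related lipids of late progenitors and oligodendrocytes. By their titles, 5 A2B5+ and 4 O4+ samples were measured on each of 2 Affymetrix array types, array A and array B. These carried 15 and 5 of the 20 probe sets, and replicate numbers may not match across them. The array B samples name whole brain as their source, but their titles and descriptions name the sorted cells, and the titles were followed.

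Nodes of Ranvier are the short gaps between myelin segments where sodium channels gather. On either side, at the paranode, the loops of the oligodendrocyte are fastened to the axon by a glial form of neurofascin that meets a complex of contactin 1 and Caspr on the axon. Ankyrins and spectrins hold the complex to the membrane skeleton of axon and glia, and hyaluronan-binding link proteins help to build the matrix around the node. Many of these genes are used by neurons as well as by oligodendrocytes.

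Of the 9 genes, 5, namely Hapln2, Ninj2, Nfasc, Cntn1 and Ank3, rose in O4+ cells, and 1, Nrcam, fell. Among all 11982 tested genes, 28.7% were higher and 18.2% lower, or 18.8% and 21% with each array centred on its median. The call of Hapln2 was forced by the filter, as given below. Cntn2, Cntnap1 and Epb41l3 were not called. The values are ratios, where 1 is in most cases the median of a probe set over its 9 arrays, so a probe set can be compared between arrays but not with another probe set. All values below are log2 of the ratio, and a difference is the O4+ mean minus the A2B5+ mean with the standard error of a limma fit over all probe sets of the array type. Of the 20 probe sets, 16 were tested, since their ratio was at least 1 on at least 4 arrays, and a call is a Benjamini-Hochberg adjusted p under 0.05 over all tested probe sets. On array A, 8 of 13 tested probe sets were higher in O4+ cells, where 32.5% of all tested probe sets were, and 2 were lower, against 14.7%. The 8 include Hapln2 1370849_at, which passed the filter through its 4 O4+ arrays alone and so had to differ; with a filter on the median ratio it was not tested and 7 were higher. On array B, 2 of 3 were higher, against 9.93%, and 1 was lower, against 13.8%. These 3 probe sets stand for 2 genes alone, since both higher ones are of Nfasc and the lower one is of Nrcam. Over the tested probe sets of these genes the median difference was 1.28 (array A) and 2.77 (array B), and over every probe set tested it was 0.26 and 0.04. The array A median includes Hapln2 1370849_at, and that of array B is the value of Nfasc 1380917_at, so both are descriptions alone. A gap separated O4+ from A2B5+ arrays in 11 of 13 probe sets of array A, where 44% of all had one, and in 3 of 3 of array B, where 25.6% had one. The 11 also include Hapln2 1370849_at. In sorted bulk samples, fewer cells of a type and less RNA per cell cannot be told apart.

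The background of array A depends on scale. With each array centred on its median, 18.6% of its probe sets were higher and 17.9% lower, and with quantile normalization 16.3% and 17.5%. On array B the shares were 9.99% and 14% when centred and 10.1% and 12.8% when quantile normalized. Of all calls on array A, 68.8% were higher in O4+ cells as deposited, 51.0% with arrays centred and 48.1% with quantile normalization. The 13 called probe sets of the node and paranode genes kept their direction and their call in both settings. Markers of the O4+ side went with the label: 11 of 11 tested genes of myelinating oligodendrocytes were higher in O4+ cells and 0 lower. Their mean log2 ratio on array A was -0.92 to -0.58 on A2B5+ arrays and 3.51 to 4.17 on O4+ arrays.

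**Figure D1:**
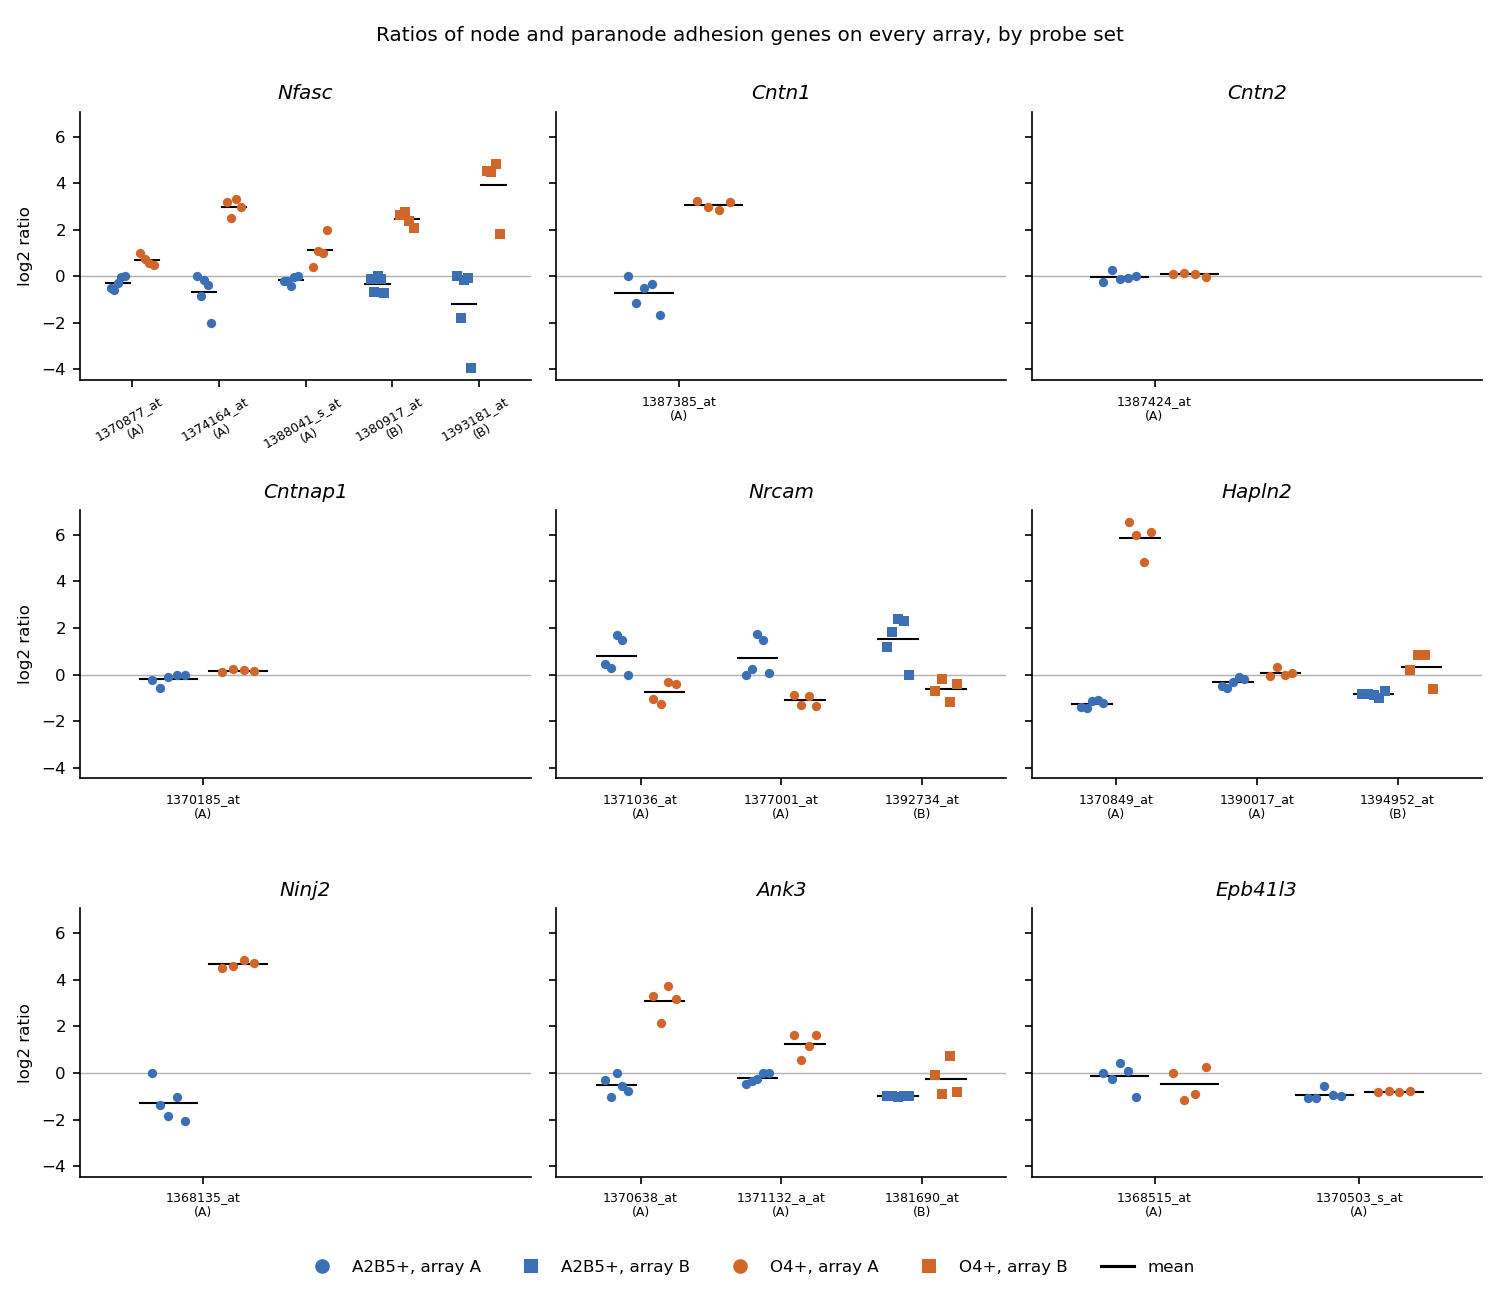
Log2 ratio of every probe set of the 9 genes on every array, with A2B5+ arrays in blue, O4+ arrays in orange, array A as circles, array B as squares and a black line at each mean. Hapln2, Ninj2, Cntn1, Nfasc and Ank3 each have a probe set on which all O4+ arrays lie far above all A2B5+ arrays, Nrcam lies lower in O4+ cells on all 3 of its probe sets, and the probe sets within Hapln2, Nfasc and Ank3 differ in size.

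For the 2 genes with the largest fitted differences on array A, the 250 bases before the annotated start are shown. For Hapln2 only a bound of that difference is given below, and a link between the rises of both genes was not tested. They are from RefSeq on build GRCr8, where 7 of the 9 genes had 8 entries. Nrcam and Cntnap1 had none. The Hapln2 window is chr2:175794439-175794688 on the minus strand, and the Ninj2 window is chr4:154978551-154978800 on the plus strand. Capitals mark ACAAAG and ACAATG, letters of the core recognised by SOX proteins, which were searched on both strands.
Hapln2: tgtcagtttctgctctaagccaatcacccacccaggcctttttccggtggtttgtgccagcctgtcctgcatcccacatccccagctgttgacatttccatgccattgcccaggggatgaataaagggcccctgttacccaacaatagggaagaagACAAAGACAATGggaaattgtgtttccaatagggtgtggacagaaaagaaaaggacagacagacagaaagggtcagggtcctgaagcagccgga
Ninj2: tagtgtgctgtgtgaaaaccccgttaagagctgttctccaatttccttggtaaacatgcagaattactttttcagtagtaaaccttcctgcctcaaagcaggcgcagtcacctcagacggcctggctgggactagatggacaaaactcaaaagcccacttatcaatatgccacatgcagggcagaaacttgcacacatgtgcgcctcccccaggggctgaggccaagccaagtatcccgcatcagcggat
The Hapln2 window held ACAAAG beginning 94 bases before the start and ACAATG directly after it, beginning 88 bases before the start. It also held the E-box CAGCTG, beginning 168 bases before the start. None of the 3 motifs was found in the windows of Ninj2, Cntn1, Nfasc, Ank3, Cntn2 or Epb41l3. Over all 33469 windows of this length, 16.3% held ACAAAG, 11.1% held ACAATG, 25.3% held either, 2.09% held both and 12% held CAGCTG. Of the 8 entries of these genes, 1 held ACAAAG or ACAATG and 1 held CAGCTG. Whether these genes hold the motifs more often than others was not tested.

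Neurofascin, the product of Nfasc, is the glial anchor of the paranode and, in another isoform, an adhesion protein of the axonal node. All 5 of its probe sets were called higher in O4+ cells, but by very different amounts. On array A, probe set 1374164_at read 0.00, -0.86, -0.17, -0.36 and -1.99 in A2B5+ replicates 1 to 5 and 3.20, 2.50, 3.31 and 2.97 in O4+ replicates 1 to 4. Every O4+ array thus lay above every A2B5+ array by a wide gap, and A2B5+ replicate 5 was the lowest. The difference was 3.67 ± 0.37 (12.8-fold, adjusted p = 4.5e-05), which ranked 77 of the 13098 tested probe sets.

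The other 2 Nfasc probe sets of array A showed smaller rises. Probe set 1370877_at read -0.50, -0.57, -0.27, -0.01 and 0.00 in A2B5+ cells and 1.00, 0.75, 0.56 and 0.48 in O4+ cells. The groups did not overlap, and the difference was 0.97 ± 0.17 (1.95-fold, adjusted p = 0.0015). Its 9 values followed the pattern shared by probe sets below the filter on this array (r = 0.92 over 9 arrays), whose median difference was 0.31. That pattern itself rises in O4+ cells, and the other probe sets called higher on array A correlated with it at 0.71 to 0.85. After the pattern was subtracted, a log2 difference of 0.67 remained. Probe set 1388041_s_at, whose suffix marks probes that can match more than 1 transcript, read -0.40 to 0.00 in A2B5+ cells. Its O4+ values of 0.40, 1.10, 1.01 and 1.97 spread widely, with replicate 1 the lowest and replicate 4 the highest. The difference was 1.28 ± 0.26 (adjusted p = 0.0034).

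On array B, Nfasc probe set 1393181_at gave the largest difference of the gene. It read 0.00, -1.81, -0.14, -0.07 and -3.93 in A2B5+ replicates 1 to 5 and 4.52, 4.50, 4.81 and 1.80 in O4+ replicates 1 to 4. The groups did not overlap, but A2B5+ replicate 5 and O4+ replicate 4 lay far below the others of their groups. The difference of 5.10 ± 0.95 (34.3-fold, adjusted p = 0.0051) had a 95% interval from 2.95 to 7.26. Without O4+ replicate 4 it was 5.80, and without A2B5+ replicate 5 it was 4.41. Probe set 1380917_at was tighter, at -0.73 to 0.00 in A2B5+ cells and 2.63, 2.76, 2.36 and 2.07 in O4+ cells. Its difference was 2.77 ± 0.21 (6.84-fold, adjusted p = 5e-05).

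Contactin 1, encoded by Cntn1, is a lipid-anchored adhesion protein that carries Caspr to the axonal side of the paranode and is also made by oligodendrocyte lineage cells. Its 1 probe set read 0.00, -1.13, -0.51, -0.35 and -1.67 in A2B5+ replicates 1 to 5 and 3.25, 2.96, 2.85 and 3.21 in O4+ replicates 1 to 4. O4+ arrays varied little (SD 0.20, n = 4) and A2B5+ arrays more (SD 0.66, n = 5), with no overlap. Cntn1 rose by 3.80 ± 0.30 (13.9-fold, adjusted p = 9.3e-06), which ranked 69 of 13098.

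Cntnap1 encodes Caspr, the axonal partner of contactin 1, and was not called. It read -0.24, -0.57, -0.09, 0.00 and 0.00 in A2B5+ replicates 1 to 5 and 0.11, 0.25, 0.20 and 0.14 in O4+ replicates 1 to 4. The groups did not overlap, but the difference was only 0.36 ± 0.15 (95% interval 0.03 to 0.68, adjusted p = 0.066). It was 0.06 after subtraction of the pattern of probe sets below the filter, with which its 9 values correlated at r = 0.91. In the limma fits its adjusted p was 0.25 with arrays centred and 0.31 with quantile normalization, while it was called with no filter (0.044), array weights (0.049), a trended robust prior (0.048) and without A2B5+ replicate 5 (0.0499).

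Cntn2, or TAG-1, an adhesion protein of the juxtaparanode beside the paranode, did not pass the test either. Its values were -0.24, 0.27, -0.12, -0.06 and 0.00 in A2B5+ cells and 0.08, 0.16, 0.11 and -0.02 in O4+ cells. The groups overlapped, and the difference was 0.11 ± 0.13 (95% interval -0.18 to 0.41, adjusted p = 0.5). Its sign turned with arrays centred (-0.06) or quantile normalized (-0.07). Cntn2 and Nfasc are neighbouring protein-coding genes on rat chromosome 13 in the GRCr8 gene table. Only Nfasc was called, and the difference between them was not tested.

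Nrcam, a relative of neurofascin that binds gliomedin and neurofascin at nodes and is also widely made by neurons, was the 1 gene of the 9 that fell. On array A, probe set 1377001_at read 0.00, 0.25, 1.76, 1.49 and 0.07 in A2B5+ replicates 1 to 5 and -0.87, -1.29, -0.93 and -1.33 in O4+ replicates 1 to 4. Probe set 1371036_at read 0.44, 0.29, 1.72, 1.47 and 0.00, then -1.05, -1.28, -0.32 and -0.38. On both, A2B5+ replicates 3 and 4 stood highest, and no O4+ array reached the lowest A2B5+ array. The falls were -1.82 ± 0.38 (3.53-fold lower, adjusted p = 0.0034) and -1.54 ± 0.38 (2.91-fold lower, adjusted p = 0.0083).

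The Nrcam probe set of array B gave the same direction. It read 1.19, 1.82, 2.39, 2.32 and 0.00 in A2B5+ replicates 1 to 5 and -0.69, -0.19, -1.16 and -0.39 in O4+ replicates 1 to 4. A2B5+ replicate 5 was the lowest of its group and still lay above every O4+ array. The difference was -2.16 ± 0.48 (4.45-fold lower, adjusted p = 0.012).

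Hapln2, also called Bral1, is a link protein that ties hyaluronan to versican at nodes of the central nervous system. Its probe set 1370849_at read -1.40, -1.43, -1.12, -1.08 and -1.22 in A2B5+ replicates 1 to 5 and 6.54, 6.01, 4.83 and 6.13 in O4+ replicates 1 to 4. The A2B5+ arrays were uniformly low and the O4+ arrays high, replicate 3 being the lowest of them. The median ratio over the 9 arrays was 0.472 here and not 1, and all A2B5+ ratios were at or below it. What a ratio under 1 means for such a probe set is not known, so the size is given only as a bound, the O4+ mean over a ratio of 1, which was at least 5.88 on the log2 scale or at least 58.8-fold higher. Because the probe set passed the filter through its O4+ arrays alone, these values are a description and its call is not used as support.

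The other 2 Hapln2 probe sets lay below the filter and were not tested. Probe set 1390017_at on array A was at -0.56 to -0.10 in A2B5+ cells and -0.05, 0.34, -0.03 and 0.06 in O4+ cells. Its difference of 0.40 was 0.10 after subtraction of the pattern shared by probe sets below the filter (r = 0.97). Probe set 1394952_at on array B read -0.99 to -0.70 in A2B5+ cells and 0.18, 0.84, 0.84 and -0.63 in O4+ cells, a difference of 1.16. With no filter both were called in the limma fit, with adjusted p = 0.033 and 0.031; 44.9% of all probe sets of array A and 6.81% of array B were then called higher, and 12.7% and 8.63% lower.

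Ninj2, ninjurin 2, is a small membrane protein that mediates adhesion between like cells and was first studied in injured nerve. Its 1 probe set read 0.00, -1.38, -1.85, -1.04 and -2.07 in A2B5+ replicates 1 to 5 and 4.51, 4.60, 4.83 and 4.72 in O4+ replicates 1 to 4. The O4+ arrays were nearly equal (SD 0.14, n = 4), and the A2B5+ arrays spread (SD 0.81, n = 5). Ninj2 rose by 5.93 ± 0.36 (61.1-fold, adjusted p = 1.5e-06), which ranked 11 of 13098. The 95% interval, 5.14 to 6.73, lay above those of Cntn1 (3.13 to 4.47), Nfasc 1374164_at (2.84 to 4.50) and Ank3 1370638_at (2.92 to 4.31). It overlapped that of Nfasc 1393181_at on array B (2.95 to 7.26). The intervals of Cntn1, Nfasc 1374164_at and Ank3 1370638_at overlapped one another, and differences between genes were not tested.

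Ank3 encodes ankyrin-G, the anchor that gathers sodium channels and neurofascin at the axonal node and that also works on the glial side of the paranode. Probe set 1370638_at read -0.31, -1.03, 0.00, -0.57 and -0.76 in A2B5+ replicates 1 to 5 and 3.29, 2.13, 3.74 and 3.18 in O4+ replicates 1 to 4. Probe set 1371132_a_at, whose suffix marks alternative transcripts of the gene, read -0.49 to 0.00 in A2B5+ cells and 1.63, 0.55, 1.14 and 1.61 in O4+ cells. On both, the groups did not overlap and O4+ replicate 2 was the lowest of its group. The rises were 3.62 ± 0.31 (12.3-fold, adjusted p = 1.6e-05) and 1.45 ± 0.23 (2.73-fold, adjusted p = 0.00069).

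The remaining Ank3 probe set, 1381690_at on array B, lay below the filter. All its A2B5+ values fell between -1.03 and -0.97, while O4+ replicates 1 to 4 read -0.10, -0.90, 0.75 and -0.80. Only O4+ replicate 3 exceeded a ratio of 1. The difference was 0.74, and with no filter it was not called (adjusted p = 0.14).

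Epb41l3, a membrane skeleton adaptor that links Caspr to the cytoskeleton in axons and is also found in glia, showed no call. Probe set 1368515_at read 0.01, -0.25, 0.42, 0.08 and -1.01 in A2B5+ replicates 1 to 5 and 0.00, -1.17, -0.92 and 0.24 in O4+ replicates 1 to 4. Both groups spread over more than a log2 unit and overlapped, with a difference of -0.31 ± 0.35 (95% interval -1.09 to 0.46, adjusted p = 0.47). Probe set 1370503_s_at lay below the filter, at -1.09 to -0.57 and -0.83 to -0.76, a difference of 0.13.

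**Figure D2:**
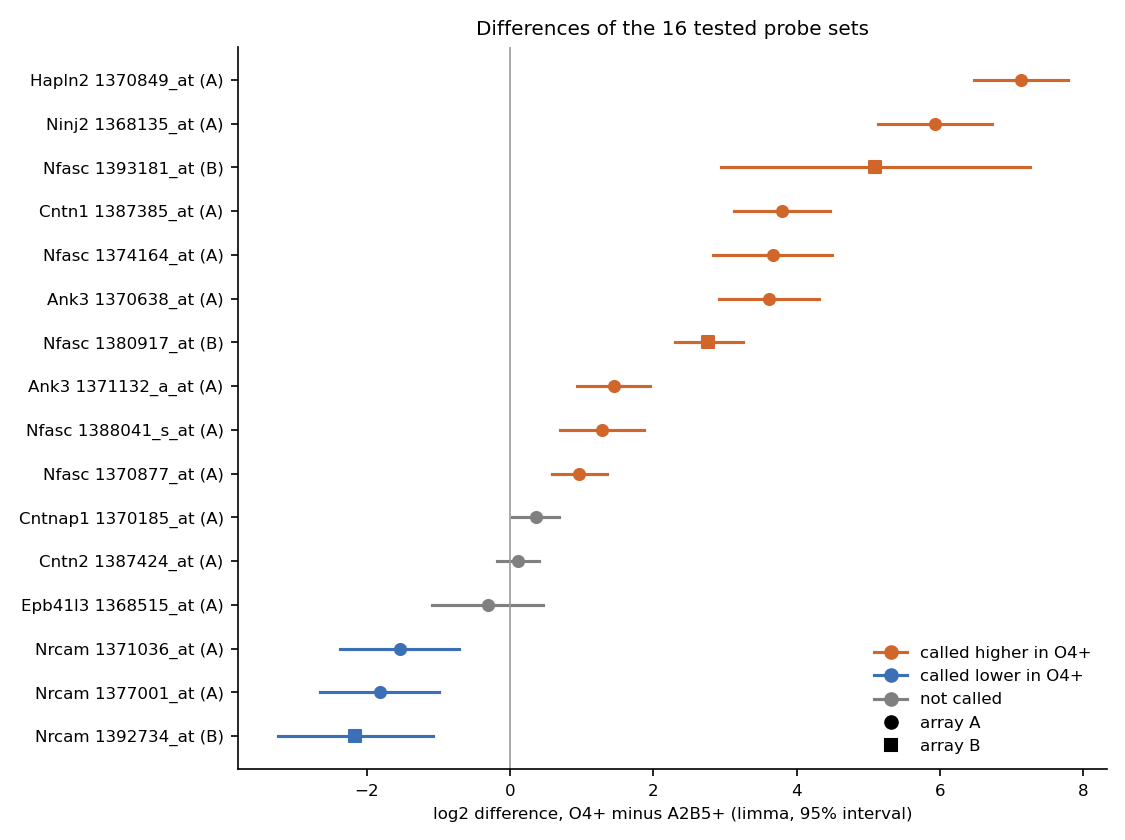
Log2 difference, O4+ minus A2B5+, of the 16 tested probe sets with the 95% interval of the limma fit, circles for array A and squares for array B. Orange marks the 10 probe sets called higher, blue the 3 Nrcam probe sets called lower and grey the 3 not called; the interval of Nfasc 1393181_at is the widest, from 2.95 to 7.26, and the Hapln2 point is the fitted value, of which the text gives only a bound.

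Probe sets of one gene were set against each other on the same array, in 8 pairs of the same array type, by an exact two-sided permutation test over the 126 splits of the arrays. In 4 pairs the O4+ and A2B5+ arrays were separated completely, at exact p = 0.0079, the smallest that 126 splits allow, and an adjusted p of 0.016 over the 8 pairs. Nfasc 1374164_at exceeded 1370877_at by 2.71 more in O4+ than in A2B5+ cells and 1388041_s_at by 2.39 more, and Ank3 1370638_at exceeded 1371132_a_at by 2.17 more. The rises of Nfasc and Ank3 thus differed in size between their own probe sets. The remaining separated pair, of Hapln2, is a description alone, since 1390017_at lay below the filter and 1370849_at passed it through O4+ arrays only. No tested probe sets of one gene were called in opposite directions.

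The remaining 4 pairs did not pass. The 2 Nfasc probe sets of array B differed by 2.33 (exact permutation p = 0.048, adjusted p = 0.076). Nfasc 1388041_s_at and 1370877_at differed by 0.31 (exact permutation p = 0.54), with O4+ arrays from -0.60 to 1.49. Nrcam differed by 0.28 (exact permutation p = 0.29) and Epb41l3 by 0.44 (exact permutation p = 0.22). Which transcripts of a gene each probe set reads was not analysed here.

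**Figure D3:**
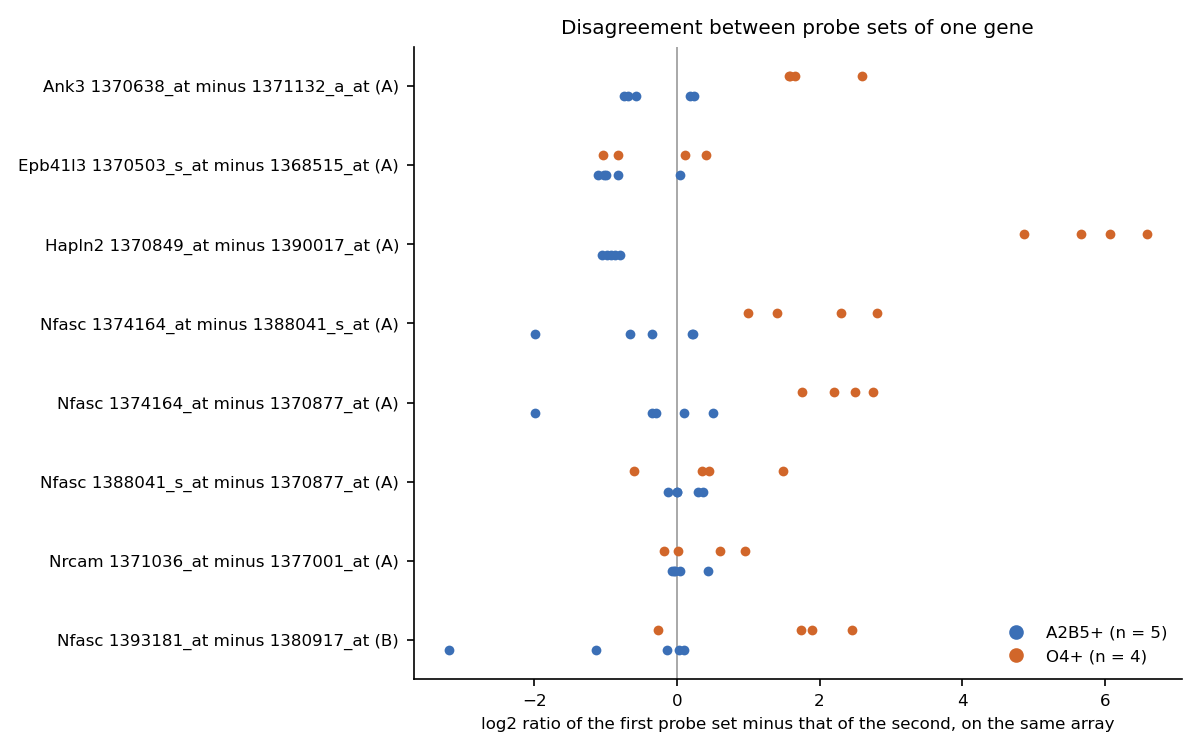
Difference in log2 ratio between 2 probe sets of one gene on the same array, for the 8 pairs, with the 5 A2B5+ arrays in blue and the 4 O4+ arrays in orange. The 4 separated pairs are those of Hapln2 and Ank3 and the pairs of Nfasc 1374164_at on array A; for the Hapln2 pair the A2B5+ arrays lie between -1.05 and -0.80 and the O4+ arrays between 4.87 and 6.59.

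Within the A2B5+ group the rising genes did not sit at one level. Apart from Hapln2, the median over 9 arrays was 1 for each called probe set, so 1 with all 4 O4+ arrays on top has its highest A2B5+ array at a log2 ratio of 0, and the spread lies below it. Among the 8 probe sets higher on array A, the lowest A2B5+ array was replicate 2 for 3 and replicate 5 for 3. Replicate 5 was also the highest A2B5+ array for 2 of the 8. On array B the lowest A2B5+ array was replicate 5 for 2 of 2, both of Nfasc. Oligodendrocyte progenitor markers on array A (11 probe sets of 7 genes) averaged 0.35, -0.53, 0.16, 0.20 and -1.24 in A2B5+ replicates 1 to 5. Their mean was lowest in replicates 5 and 2. Myelinating oligodendrocyte markers were nearly level, at -0.74, -0.65, -0.58, -0.92 and -0.82. Of 9 tested progenitor marker genes 4 were higher and 4 lower in O4+ cells, and their part in the results above was not tested.

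Nrcam followed another order. Neuron markers on array A (22 probe sets of 17 genes) averaged 0.48, 0.20, 0.97, 0.71 and -0.37 in A2B5+ replicates 1 to 5 and -0.60 to -0.30 in O4+ cells. Astrocyte markers (12 probe sets of 8 genes) averaged 0.41, 0.27, 1.14, 0.91 and -0.04, and -0.85 to -0.24 in O4+ cells. Both lists were highest in A2B5+ replicates 3 and 4, as Nrcam was. Of 18 tested neuron marker genes 9 were lower and 5 higher (9 and 3 with arrays centred), and of 9 astrocyte genes 7 were lower and 0 higher. The part of neurons or astrocytes in the fall of Nrcam was not tested.

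Markers of other cells also differed. Of 10 microglia marker genes 9 were lower and 0 higher, and of 9 endothelial and mural genes 6 were lower and 0 higher. Schwann cell markers, from the myelinating cells of peripheral nerve, averaged -0.57 to 0.06 in A2B5+ cells and 2.25, 0.84, 0.88 and 1.90 in O4+ replicates 1 to 4 on array A. Of 5 tested Schwann cell genes 4 were higher and 1 lower (3 and 1 with arrays centred). Their part in the results was not tested.

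**Figure D4:**
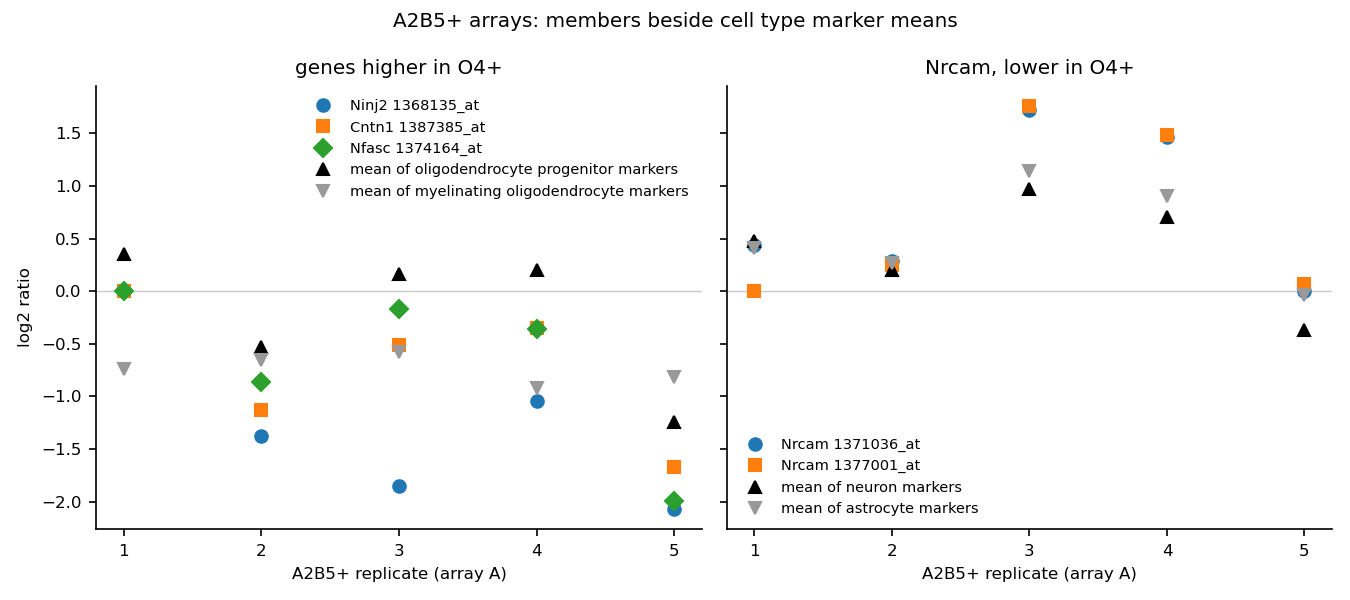
Log2 ratios on the 5 A2B5+ arrays of type A, by replicate. The left panel sets Ninj2, Cntn1 and Nfasc beside the mean of progenitor and of myelinating oligodendrocyte markers. The Ninj2, Cntn1 and Nfasc probe sets shown are the 3 of 8 higher on array A that were lowest in replicate 5. Among the 8, replicate 2 was lowest for 3 and replicate 5 was highest for 2. The right panel sets both Nrcam probe sets beside the mean of neuron and of astrocyte markers, all highest in replicates 3 and 4.

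Relatives and partners of these genes were counted by gene, a gene being higher when at least 1 of its probe sets was called higher and none lower. Of 57 tested, 27 were higher and 10 lower, where 28.7% and 18.2% of all 11982 tested genes were. With arrays centred these counts were 22 and 10, against 18.8% and 21% of all. The median difference of the 57 was 0.41, against 0.14 over all genes. The 57 include genes of the lipids that O4 binds and myelinating oligodendrocyte markers, named below.

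The contactins Cntn4 and Cntn6 were not called, and Cntn3 and Cntn5 lay below the filter. Ninj1, the paralogue of Ninj2, differed by -0.03 ± 0.36 (adjusted p = 0.95). Of 3 other link proteins 1 was higher and 1 lower: Hapln3 fell by 1.08 ± 0.23 (adjusted p = 0.0096), Hapln1 read -0.68 ± 0.37 on array A (adjusted p = 0.15), and 1 of 3 Hapln4 probe sets rose by 0.57 ± 0.17, a call lost with arrays centred. Both other ankyrins were counted as lower through 1 probe set each. Ank2 fell by 0.72 ± 0.24 on array A (adjusted p = 0.031), while its tested probe set on array B read 0.21 ± 0.10 (adjusted p = 0.16) and its last, below the filter, 0.10. Of 4 Ank1 probe sets 1 fell, by 1.08 ± 0.26 (adjusted p = 0.018), and the others read 0.07 to 0.41 and were not called. Of 6 other genes of the Epb41 family 1 was higher and 2 lower: Epb41l2 rose by 1.08 ± 0.21, and Epb41 fell by 2.10 ± 0.41 on 1 of 2 probe sets. L1cam, a relative of Nrcam and Nfasc, read -0.67 ± 0.30 (adjusted p = 0.088), and Cntnap2, the Caspr relative of the juxtaparanode, was not called on either of its probe sets. Whether relatives and called genes differ from each other was not tested.

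Partners of the node and paranode were mixed. Of 10 tested genes of paranodal loops and their glycolipids 9 were higher and 0 lower, with a median difference of 3.85. Among them Nectin1 rose by 1.95 ± 0.20 and Jam3, a junction protein, by 1.15 ± 0.27. This list is not independent of the sort. Ugt8, Gal3st1 and Fa2h act in making the sulfatide lipids that O4 binds. Mag, Mal and Cldn11 are also among the myelinating oligodendrocyte markers above. Of 4 spectrins 3 were higher (1 with arrays centred), led by Sptbn4, the spectrin that binds ankyrin-G, at 3.58 ± 0.28 (adjusted p = 7.8e-06). Sptbn4 read -0.89 to 0.00 on A2B5+ arrays and 2.55 to 3.88 on O4+ arrays, with no overlap.

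In the nodal matrix 3 of 4 tested genes were higher. Bcan, a proteoglycan whose gene neighbours Hapln2 on chromosome 2, rose by 1.33 ± 0.36 on 1 probe set (adjusted p = 0.014) and read 0.44 ± 0.28 on the other (adjusted p = 0.21). Vcan, the versican core protein, was called higher on 4 probe sets, by 0.63 to 2.87. Of 9 partners of the juxtaparanode 6 were higher and 0 lower (4 and 0 with arrays centred). Lgi3, a secreted protein, rose by 4.94 ± 0.28, 4.68 ± 0.28 and 1.59 ± 0.32 on its 3 probe sets. Axonal channels went both ways, with 2 of 10 higher and 5 lower. Kcna1, a potassium channel of the juxtaparanode, rose by 4.34 ± 0.59 (adjusted p = 0.00028). The sodium channel subunits Scn3b and Scn4b fell by 0.94 ± 0.29 and 1.42 ± 0.39 on array A. Other calls rested on 1 of 2 probe sets. Kcna2 fell by 1.21 on array B and read 0.32 on array A, not called. Kcnab1 fell by 0.84 on array B, and its array A probe set, at 0.32, lay below the filter and was not tested. Kcnk2 fell by 0.63 on array A, and its array B probe set, at -0.00, also lay below the filter. Kcnq3 rose by 0.69 on one probe set and read 0.23 on the other, not called.

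**Figure D5:**
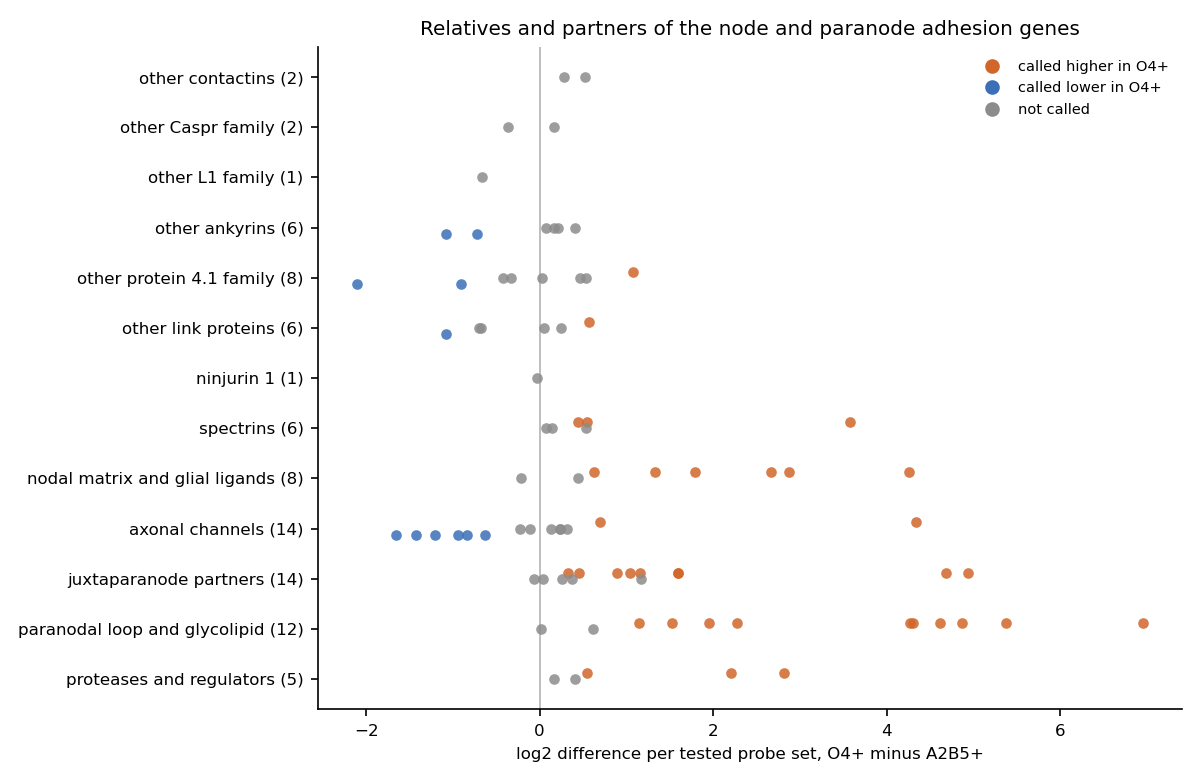
Log2 difference, O4+ minus A2B5+, of each tested probe set of the relatives and partners, 1 row per gene list with the number of probe sets in brackets, orange for called higher, blue for called lower and grey for not called. The paranodal loop and glycolipid row reaches farthest right, while the rows of contactins, the Caspr family, the L1 family and ninjurin 1 hold grey points alone.

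For the most changed probe set of each called gene, the 3 other genes of its array type with the highest Pearson r over the 9 arrays are given as a description. These correlations share the step between both populations. Hapln2 was most like Mbp, Rasgef1c and Slc48a1 (each r = 0.998). Ninj2 was most like Ncald (0.997), Stard3nl (0.996) and Wbp1 (0.995). Cntn1 was most like Gpc1 (0.996), Lss (0.995) and Mtch1 (0.993), and Ank3 most like Stambp (0.998), Ttc19 (0.995) and Reep5 (0.993). On array B, Nfasc was most like Atat1 and Pnpla6 (each 0.990) and Gpat4 (0.985). Nrcam was most like Slc35g2 (0.981), Kcnd2 (0.975), a potassium channel of neurons, and Rad54l (0.974).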

How the data were processed

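The deposited values are linear ratios per probe set. Per the submitters' processing notes GCRMA, with no version, was used, and how the authors turned its output into a ratio is not given in these sources. A probe set's median over the 9 arrays was exactly 1 for 12995 (array A) and 11050 (array B) probe sets, and below 1 for 2928 and 4283. The log2 was taken here, with no offset and no further normalization. The 57 control probe sets per array type were not tested. Probe sets with a ratio of at least 1 on at least 4 arrays were tested, 13098 and 11136 in number. Each array type was fitted alone by lmFit and eBayes of limma 3.58.1 (R 4.3.3), two-sided, 5 A2B5+ against 4 O4+ by sample title, with Benjamini-Hochberg adjustment. The fit was tested on simulated data with independent normal noise. These lacked the array-wide difference between populations of array A, so the test says nothing about its effect on the calls. Symbols come from the platform's annotation table, and probe sets with several or no symbols stayed unnamed. The pattern of low probe sets is the median of the centred values of the 2768 probe sets of array A with a median below 1 that failed the filter. Genes, lists and tests were chosen with earlier results of these data known. The text names every probe set of the 9 genes, genes of fixed lists of relatives and partners, and the 3 genes most like each called gene. The number of arrays limits precision, and whether both populations shared litters was not settled. Alternatives were centring, quantile normalization, 2 other filters, a floor at a ratio of 0.5, array weights, a trended robust prior, a replicate block and leaving out each replicate.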

Additional observations from a re-analysis of the deposited data

Results flagged for a closer look

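In 40 groups of values, each a probe set in one population, 2 held an array far from the rest, where chance gives about 1 in 20. For Nfasc 1393181_at on array B, O4+ replicate 4 read 1.80 while the other O4+ arrays read 4.50 to 4.81. For Epb41l3 1370503_s_at on array A, A2B5+ replicate 3 read -0.57 while the other A2B5+ arrays read -1.09 to -0.94. No cause was tested for either value.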

How the results depend on the processing

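The 13 called probe sets of the 9 genes kept their direction and call in 220 of 220 alternative fits, up to 17 per probe set. These fits reuse the same arrays, and 5 of the 13 probe sets are of Nfasc and 3 of Nrcam, so they are not independent checks. How often other called probe sets kept their call was not worked out. The 13 include Hapln2 1370849_at, which passed the filter through its O4+ arrays alone, so its fits are not used as support. Under the median filter Hapln2 1370849_at was not tested. Cntnap1, not called in the report, was called with no filter (adjusted p = 0.044), array weights (0.049), a trended robust prior (0.048) and without A2B5+ replicate 5 (0.0499). Cntn2 turned sign with arrays centred (-0.06) and quantile normalization (-0.07), and was not called in either. Of the 8 pairs of probe sets, 4 passed, among them the Hapln2 pair, which is a description alone. Leaving out each replicate gave 0 to 5. Without any 1 of the A2B5+ replicates 70 splits allow an exact permutation p of 0.029 at best. The smallest adjusted p found was then 0.057, so no pair passed. Only with more pairs at that limit could the adjusted p have been under 0.05. With the replicate block 0 pairs passed, where 16 sign changes allow an exact p of 0.12 at best. Whether replicate numbers pair the samples is not settled by the labels. After removal of group means, same-numbered arrays correlated at 0.02, 0.305, 0.265 and 0.175 on array A and at -0.198 to 0.237 on array B, so not every pair exceeded 0.1, and the samples were treated as unpaired. The replicate block moved all calls from 6188 to 6232 (array A) and from 2644 to 2196 (array B). Signal over background is unknown from ratios, which limits what can be said of low probe sets.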
